A study of Rattus norvegicus with 5 samples.

Results

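Extracellular ATP and adenosine signalling was described here through 10 genes picked by symbol, of 14871 genes with a probe on the array: Entpd1, Nt5e, Ada, P2rx1, P2rx4, P2rx7, P2ry12, Adora2a, Adora2b and Adora3. All 10 had a probe, and 9 could be tested, since P2rx1 was measured on 3 of the 5 arrays. Each array compared mononuclear leukocytes washed out of the blood vessels of a rat renal allograft with those of an isograft. Allografts were kidneys of F344 rats in LEW recipients, strains with a minor difference in MHC class I per the labels, and isografts were LEW kidneys in LEW recipients. All rats were male, of 270 to 300 g at transplantation, their age not being given in the labels. In both groups the recipient lost both own kidneys, received ampicillin and no immunosuppression, and donor and recipient were heparinised. Granulocytes and red cells had been depleted on a density gradient. Recipients that died in the first days were left out by the authors, the day of collection is not given in the sources used here, and the 5 arrays are labelled as biological replicates, with nothing said of pooled animals.

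The allograft sample carried Cy5 on replicates 1, 3 and 5 and Cy3 on replicates 2 and 4. All values below are log2 ratios of allograft over isograft. This direction is likely from the sample titles, the design text and the values themselves, and is not stated outright. Replicates 2 and 4 were taken as already turned to it, on the same grounds. With their signs turned, 0 rows passed the test described below, in place of 455. The log base is not stated either, so folds hold for base 2. Ratios give no level, so whether a gene was expressed at all, including the markers of the labelled cell type, cannot be read from them. In these mixed cells, more cells of a type cannot be told apart from more RNA per cell. Since rows carry no probe names, genes were assigned through a spot order found from the values themselves, under which probes of a shared accession number correlated at 0.476 across 4029 pairs, against -0.0021 with the rows as numbered. The correlation on single arrays ran from 0.147 on replicate 4 to 0.546 on replicate 3. Array medians lay between -0.012 and 0.028 and SDs between 0.506 and 0.847. Ratios were fitted with limma with a term for the dye, and a gene was called where the Benjamini-Hochberg adjusted p over all 33646 rows tested was under 0.05.

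ATP leaves stressed or dying cells and acts as a danger signal on P2 receptors, of which the P2X members are ion channels opened by ATP and the P2Y members are coupled to G proteins. The surface enzyme CD39 (Entpd1) removes phosphates from ATP and ADP to leave AMP, CD73 (Nt5e) turns AMP into adenosine, and adenosine deaminase (Ada) turns adenosine into inosine. Adenosine that is not cleared acts on its own receptors, which dampen many leukocyte responses. On platelets ADP acts on P2Y12, and CD39 of the vessel wall limits that response.

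The enzymes at the start and the end of this chain, Entpd1 and Ada, were higher in allograft leukocytes, by 1.73-fold and 1.75-fold, whereas Nt5e between them stood at -0.035 ± 0.13 (SE, n = 5 arrays). These were the only calls among the 9 members tested: 2 rose and 0 fell, where 1.78% of the 14329 named genes tested were called, 1.07% higher and 0.712% lower. The remaining 7 members did not pass the test, and their ratios ran from -0.50 for P2ry12 to 0.69 for P2rx4. The median over the 9 was -0.035, beside -0.0058 over all genes tested. Of the 9 members, 3 were above 0 on every array (Entpd1, Ada and Adora2a) and 1 below 0 on every array (P2ry12), beside 10.6% and 10.5% of named genes. Both calls were close to the threshold, and no member was called when any 1 of the 5 arrays was left out.

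**Figure D1:**
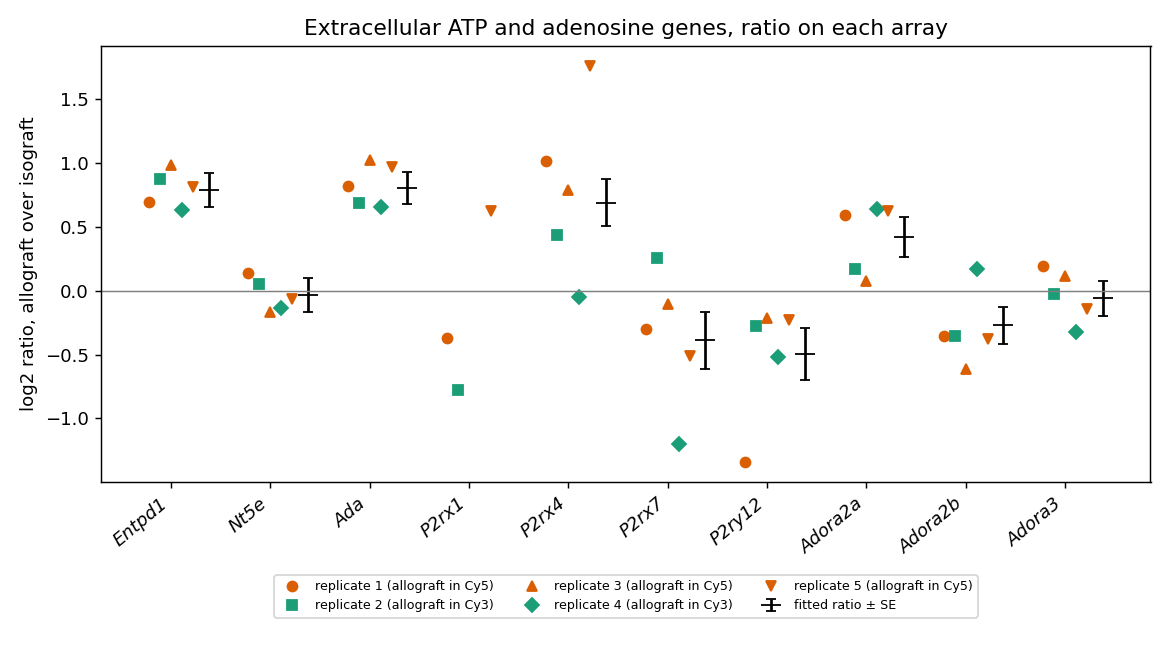
Log2 ratio of allograft over isograft (vertical axis) for each of the 10 genes on each array, coloured by the dye of the allograft sample, with the fitted ratio and its SE in black. The arrays lie between 0.63 and 0.99 for Entpd1 and between 0.66 and 1.02 for Ada, while those of P2rx4 spread from -0.051 to 1.76 and P2rx1 has 3 values and no fit.

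Entpd1 stood at 0.70, 0.87, 0.99, 0.63 and 0.81 on replicates 1 to 5. No array was at or below 0, and the whole range of this average over 3 probes was 0.35, the narrowest of the members after that of Nt5e. The fitted ratio was 0.79 ± 0.13 (95% confidence interval 0.48 to 1.11, limma adjusted p = 0.0469). Entpd1 had 3 probes on the array, which pointed the same way and differed in size: 0.51 ± 0.14, 0.76 ± 0.16 and 1.11 ± 0.16 when fitted singly. Of these the last passed by itself (limma adjusted p = 0.0254), a probe annotated to a different accession number from the other two. The means were 0.83 over the 3 arrays with the allograft in Cy5 and 0.75 over the 2 with it in Cy3.

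Ada stood at 0.82, 0.69, 1.02, 0.66 and 0.97 on replicates 1 to 5. It too was above 0 on 5 of 5 arrays, with the higher 3 values on the arrays that carried the allograft in Cy5. The fitted ratio was 0.81 ± 0.13 (95% confidence interval 0.50 to 1.11, limma adjusted p = 0.0398). Its 2 probes, of the same accession, stood at 0.58 ± 0.14 and 1.03 ± 0.15, and the second passed by itself (limma adjusted p = 0.0256).

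Nt5e, read from 1 probe, stood at 0.14, 0.052, -0.16, -0.13 and -0.062 on replicates 1 to 5. Its arrays lay on both sides of 0, and the 95% confidence interval of -0.35 to 0.28 covers no change and changes of up to about that size (limma adjusted p = 0.930). On each array the ratio of Entpd1 exceeded that of Nt5e, by 0.56 to 1.15 (mean 0.83 ± 0.21 SD, n = 5, exact sign-flip p = 0.0625), and the ratio of Ada did so by 0.64 to 1.19 (mean 0.87 ± 0.24 SD, n = 5, exact sign-flip p = 0.0625). In all 5 such pairs of genes were compared, chosen after their values were seen, each gave this two-sided p, the smallest that 5 arrays allow, and it was 0.0625 after adjustment over the pairs as well.

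The promoters of these 3 enzymes are shown because they catalyse successive steps and 2 of them rose. Each runs 5′ to 3′ from 250 bases before to 50 bases after the RefSeq start on GRCr8, at chr1:249422614-249422913 on the plus strand for Entpd1, chr3:172842234-172842533 on the minus strand for Ada and chr8:98150675-98150974 on the plus strand for Nt5e. Capitals mark matches, on either strand, to GGGCGG (the GC box bound by Sp1-type factors), TTCNNNGAA (the spaced palindrome bound by STAT factors) and TGACG (a part of the cAMP response element).
Entpd1: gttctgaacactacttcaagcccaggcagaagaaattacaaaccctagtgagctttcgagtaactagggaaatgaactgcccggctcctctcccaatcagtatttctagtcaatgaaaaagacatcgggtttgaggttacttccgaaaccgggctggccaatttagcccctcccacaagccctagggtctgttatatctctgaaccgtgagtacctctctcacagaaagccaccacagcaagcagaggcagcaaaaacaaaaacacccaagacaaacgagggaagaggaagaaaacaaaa
Ada: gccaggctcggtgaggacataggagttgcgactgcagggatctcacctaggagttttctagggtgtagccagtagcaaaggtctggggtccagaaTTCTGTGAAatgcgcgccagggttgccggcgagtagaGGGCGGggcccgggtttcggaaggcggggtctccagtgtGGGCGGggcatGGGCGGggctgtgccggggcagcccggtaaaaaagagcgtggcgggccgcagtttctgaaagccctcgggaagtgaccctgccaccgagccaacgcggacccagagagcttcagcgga
Nt5e: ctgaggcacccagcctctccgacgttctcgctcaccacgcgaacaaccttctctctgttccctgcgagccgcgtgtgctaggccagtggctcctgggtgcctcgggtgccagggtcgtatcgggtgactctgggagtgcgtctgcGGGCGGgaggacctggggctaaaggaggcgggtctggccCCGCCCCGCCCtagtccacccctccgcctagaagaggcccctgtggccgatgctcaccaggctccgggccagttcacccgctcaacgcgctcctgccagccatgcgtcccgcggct
The Ada window held 3 GC boxes and 1 match to TTCNNNGAA, and the Nt5e window held 3 GC boxes, of which the last 2 share a base. None of the 3 motifs occurred in the Entpd1 window, and none of the windows held TGACG. Over 33469 RefSeq promoter windows of this length, 33.1% held a GC box, 8.87% a match to TTCNNNGAA and 21.2% a match to TGACG. G and C made up 47.0% of the Entpd1 window, 64.3% of that of Ada and 69.3% of that of Nt5e.

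Among the ATP-gated channels, P2rx4, which opens at low ATP and is found on macrophages and microglia, had the higher ratio of the pair that could be fitted. It stood at 1.01, 0.44, 0.79, -0.051 and 1.76 on replicates 1 to 5, with 4 of 5 arrays above 0. The fitted ratio was 0.69 ± 0.19 (95% confidence interval 0.25 to 1.13, limma adjusted p = 0.154), with a dye effect of 0.50: the 3 arrays with the allograft in Cy5 held the 3 highest values. P2rx7, the channel that opens at high ATP and triggers the NLRP3 inflammasome in macrophages, stood at -0.30, 0.26, -0.10, -1.20 and -0.51. Of its arrays 4 lay below 0 and 1 above, and the fitted -0.39 ± 0.22 did not pass (limma adjusted p = 0.530). Single arrays moved this ratio widely: it was -0.023 without replicate 4 and -0.75 without replicate 2. The same arrays that set the extremes of one gene did not set those of the other, except that replicate 4 was lowest for both.

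P2rx4 and P2rx7 are neighbouring protein-coding genes in the RefSeq table. The ratio of P2rx4 exceeded that of P2rx7 on 5 of 5 arrays, by 0.18 to 2.28 (mean 1.16 ± 0.76 SD, n = 5, exact sign-flip p = 0.0625). This pair was chosen after its values were seen, and the p is the smallest that 5 arrays allow. P2rx1, the ATP-gated channel of platelets and some leukocytes, was measured on replicates 1, 2 and 5, at -0.37, -0.78 and 0.62. These 3 values straddle 0. With a looser requirement on measured arrays it could be fitted on those 3 arrays, at -0.33 ± 0.28 (limma adjusted p = 0.678).

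P2ry12, the ADP receptor of platelets that clopidogrel blocks, stood at -1.34, -0.27, -0.21, -0.52 and -0.23 on replicates 1 to 5. All arrays were below 0, and replicate 1 stood well below the others. The fitted ratio of -0.50 ± 0.20 did not pass (95% confidence interval -0.98 to -0.011, limma adjusted p = 0.361), and it was -0.31 without replicate 1. Of the 7 platelet markers tested, 5 fell: Clec1b (-3.12), Pf4 (-3.12), Gp1bb (-2.98), Treml1 (-2.23) and Gp5 (-1.32) (limma adjusted p from 0.00315 to 0.0388). Of all named genes tested, 0.712% were called lower. With 1 array left out, Clec1b, Pf4 and Gp1bb were called in 5 of 5 fits, Treml1 in 3 and Gp5 in 1. The platelet list had a median of -2.23, and all 7 ratios were below 0. Ppbp (-0.38, limma adjusted p = 0.528) and Itgb3, the highest at -0.20, did not pass. The list's mean per array ran from -2.56 on replicate 1 to -1.64 on replicate 3. Replicate 1 was the lowest array for the mean of the platelet markers and for P2ry12. It was also the lowest for the means of the T cell markers (-0.20) and the B cell markers (-0.95). The mean of the red cell markers was instead lowest on replicate 5 (-2.02). Itgb3 had no value on replicate 2, so the platelet mean of that array lacks it. Among the platelet markers Pf4 differed, being lowest on replicate 4 (-3.64, against -3.29 on replicate 1). The part of platelets in the P2ry12 ratio was not tested.

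In the same RefSeq table P2ry12 lies next to P2ry13, a second ADP receptor, which is found on myeloid cells, and close to P2ry14, a receptor for UDP-sugars on immune cells. P2ry13 rose 2.38-fold, with arrays at 1.54, 0.82, 1.97, 0.53 and 1.97 (1.25 ± 0.14, limma adjusted p = 0.0155). Its dye effect was 0.57, and the 3 arrays with the allograft in Cy5 held the 3 highest values. P2ry14 rose 1.83-fold, with arrays from 0.69 to 1.13 (0.87 ± 0.13, limma adjusted p = 0.0308). The ratio of P2ry13 exceeded that of P2ry12 on 5 of 5 arrays, by 1.06 to 2.88 (mean 1.88 ± 0.79 SD, n = 5, exact sign-flip p = 0.0625). This pair too was chosen after its values were seen, with the smallest p that 5 arrays allow. With P2ry13 and P2ry14 included, the other P2Y receptors gave 2 rising and 0 falling of 7 tested and a median of 0.52. Beside this, 1.07% of all named genes tested were called higher and 0.712% lower. The lowest ratio of these receptors was that of P2ry1, another platelet ADP receptor, at -0.060 ± 0.26.

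**Figure D2:**
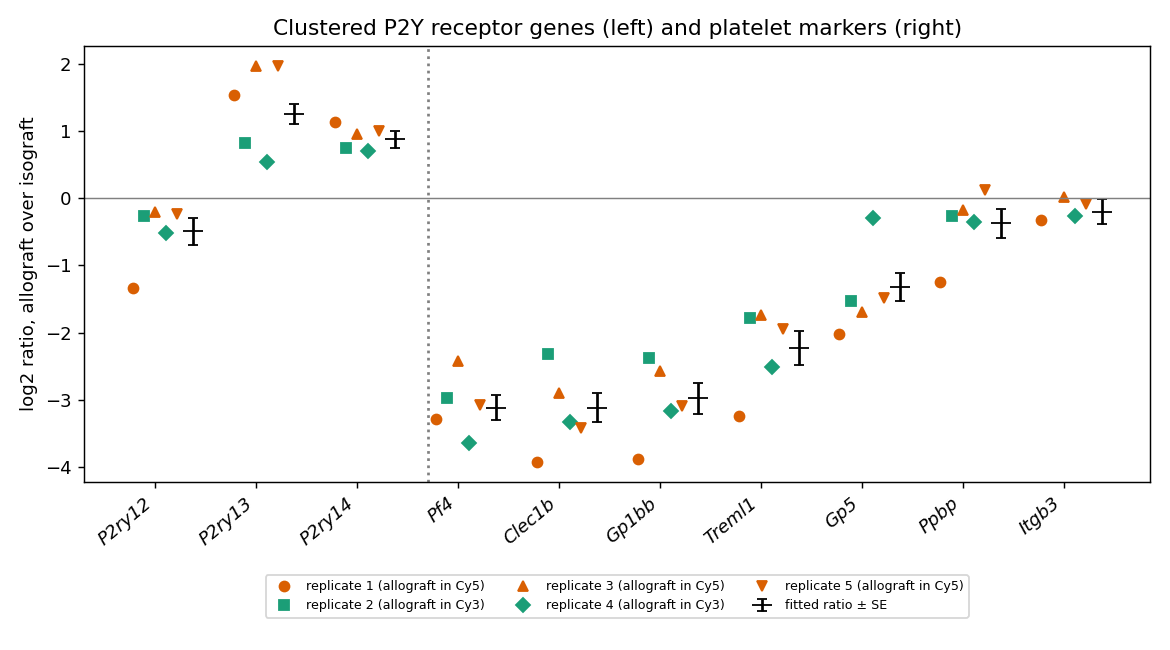
Log2 ratio of allograft over isograft (vertical axis) on each array for 3 neighbouring P2Y receptor genes and for the 7 platelet markers tested, with the fitted ratio and its SE in black. P2ry13 and P2ry14 lie above 0 and P2ry12 below 0 on every array. In the fitted ratio P2ry12 lies nearer to 0 than Pf4, Clec1b, Gp1bb, Treml1 and Gp5, and farther from 0 than Ppbp and Itgb3.

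None of the 3 adenosine receptors among the members passed. Adora2a, which raises cAMP in T cells and macrophages and restrains them, stood at 0.60, 0.17, 0.075, 0.64 and 0.62 on replicates 1 to 5. All arrays were above 0, with replicates 2 and 3 near it, and the fit gave 0.42 ± 0.16 (95% confidence interval 0.047 to 0.79, limma adjusted p = 0.307). Its 2 probes were close, at 0.40 and 0.44. Adora2b, the low-affinity receptor that also raises cAMP, stood at -0.35, -0.35, -0.61, 0.17 and -0.38. With 4 of 5 arrays below 0 it was fitted at -0.27 ± 0.15 (limma adjusted p = 0.501), and with 1 array left out it ran from -0.40 without replicate 4 to -0.14 without replicate 2. The ratio of Adora2a exceeded that of Adora2b on 5 of 5 arrays, by 0.47 to 1.00 (mean 0.73 ± 0.24 SD, n = 5, exact sign-flip p = 0.0625). Here as well the pair was chosen after its values were seen, and the p is the smallest that 5 arrays allow.

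Adora3, the Gi-coupled receptor known from rodent mast cells, stood at 0.19, -0.028, 0.11, -0.32 and -0.14, on both sides of 0. Its fitted ratio was -0.060 ± 0.14 (95% confidence interval -0.39 to 0.27, limma adjusted p = 0.879). Adora3 overlaps Tmigd3 in the RefSeq table, so signal of these genes may not be separable. Adora1, the remaining adenosine receptor, was at -0.21 ± 0.14 (limma adjusted p = 0.581).

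In the order of the fitted ratios, Ada (0.81), Entpd1 (0.79) and P2rx4 (0.69) were followed by Adora2a (0.42), Nt5e (-0.035), Adora3 (-0.060), Adora2b (-0.27), P2rx7 (-0.39) and P2ry12 (-0.50). Neighbours in this order differed by less than the sum of their SEs, except Adora2a and Nt5e. The SD across arrays differed between the members as well. It was 0.13 for Nt5e, 0.14 for Entpd1 and 0.16 for Ada, and 0.21, 0.27 and 0.29 for Adora3, Adora2a and Adora2b. It was 0.48, 0.54 and 0.68 for P2ry12, P2rx7 and P2rx4, and 0.72 over the 3 arrays of P2rx1. The enzymes had the lowest SDs and the adenosine receptors the next, but Entpd1 and Ada are averages over probes, which can narrow a spread. Taken singly, the 3 probes of Entpd1 ran from 0.43 to 1.06, 0.39 to 0.81 and 0.80 to 1.44 over the arrays. The SDs also hold dye effects, such as 0.50 for P2rx4, so they do not compare enzymes with receptors as such. All of these genes but Entpd1, Ada and Adora2a were read from 1 probe.

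Of the other genes of extracellular nucleotide signalling, in lists that hold 72 genes, 67 were tested, 5 rose and 0 fell, with a median of 0.029. Besides P2ry13 and P2ry14 they were Pnp, Pde4b and Il18. Of all named genes tested, 1.07% were called higher and 0.712% lower. Pnp, purine nucleoside phosphorylase, which takes inosine, the product of Ada, onward to hypoxanthine, rose 2.38-fold with arrays from 0.98 to 1.67 (1.25 ± 0.14, limma adjusted p = 0.0157). It was the only one of 15 tested genes of adenosine uptake and clearance to pass, and the list's median was -0.16. Dpp4, which encodes CD26, the surface protein that binds adenosine deaminase in humans, had the lowest ratio of that list (-0.65 ± 0.14, limma adjusted p = 0.0810) and was below 0 on 5 of 5 arrays.

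Of 12 other ectonucleotidases and NAD enzymes 0 passed, and the list's median was -0.041. Its highest ratio was that of Acp3, an acid phosphatase that can also make adenosine from AMP (0.84 ± 0.22, limma adjusted p = 0.137), and its lowest that of Enpp1, which cleaves ATP to AMP and pyrophosphate (-0.68 ± 0.21, limma adjusted p = 0.200). Among 4 other P2X receptors 0 passed, between -0.67 for P2rx3 and 0.13 for P2rx5. Of 6 genes of nucleotide release channels and transporters 0 passed, between -0.25 for the connexin gene Gjc1 and 0.27 for Panx1, the pannexin channel through which dying cells release ATP.

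Downstream of P2X7, 1 of 7 tested inflammasome genes rose, beside 1.07% of all named genes tested. Il18, a cytokine that the inflammasome matures, stood at 0.91 ± 0.15 (limma adjusted p = 0.0434), although its 2 probes were far apart, at 0.33 and 1.45. Il1b, the other such cytokine, was at 0.92 ± 0.16 and just missed the threshold (limma adjusted p = 0.0513). Its 3 probes were also apart, at 1.32, 1.12 and 0.32. The first and the second passed when fitted singly (limma adjusted p = 0.0222 and 0.0225). Nek7, a kinase that binds NLRP3, was lowest at -0.17. The list's median was 0.29. Downstream of the adenosine receptors, 1 of 15 tested genes of the cAMP pathway rose: Pde4b, a phosphodiesterase that breaks down cAMP in leukocytes, 2.19-fold with arrays from 0.94 to 1.35 (1.13 ± 0.14, limma adjusted p = 0.0169). The list's median was 0.13, and its lowest ratio was that of the adenylate cyclase gene Adcy9 (-0.29).

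**Figure D3:**
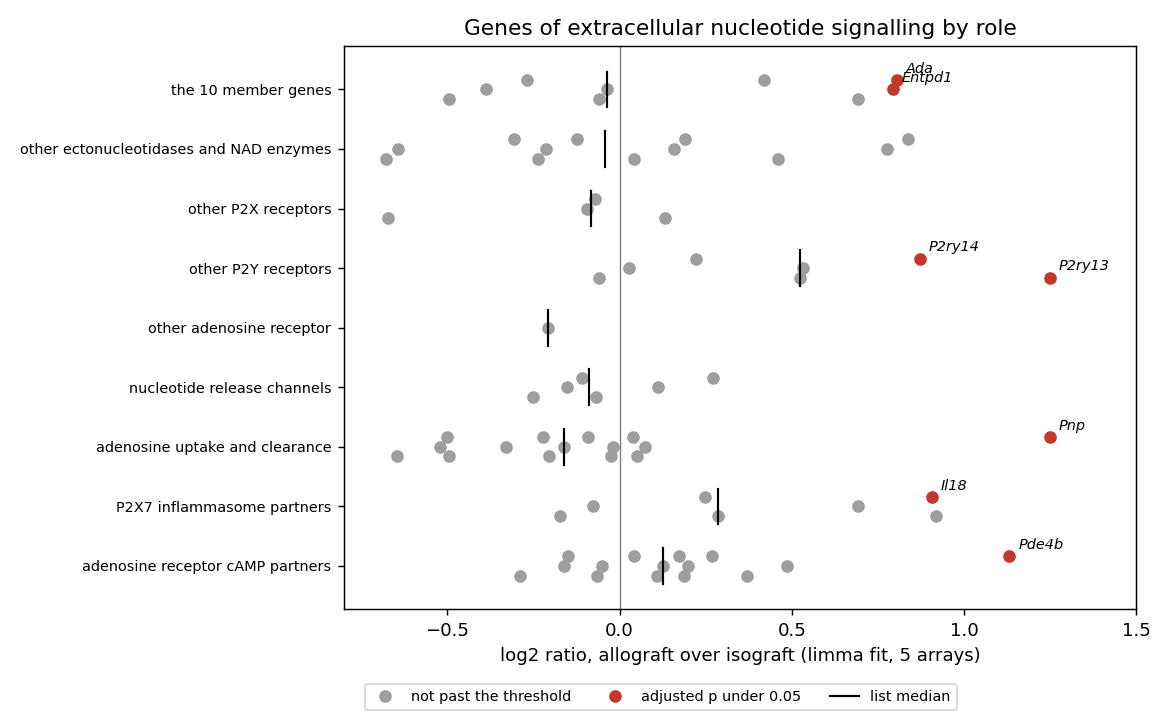
Fitted log2 ratio of allograft over isograft (horizontal axis) of each tested gene, by role, with called genes in red and named and the list median as a black bar. All 7 called genes lie to the right, between 0.79 for Entpd1 and 1.25 for Pnp and P2ry13, while the medians of the lists lie between -0.21 and 0.52.

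Several cell types that carry these genes could be present in different shares. Beside the marker counts here and in the next paragraph, 1.07% of all named genes tested were called higher and 0.712% lower. Entpd1 is known from monocytes, B cells, regulatory T cells and endothelium. Of 14 monocyte and macrophage markers 2 rose, Cd14 (1.42 ± 0.17) and Aif1 (1.02 ± 0.13), with Ccr2 lowest at -0.85, a median of 0.18 and a list mean per array between 0.076 and 0.36. Of 7 B cell markers 0 passed, with a median of -0.57, 6 ratios below 0 and 1 above. Cd79b (-1.11, limma adjusted p = 0.0559) and Fcrla (-0.85, limma adjusted p = 0.0514) just missed the threshold and were below 0 on every array. Of 6 regulatory T cell markers 0 passed, between -0.54 for Tnfrsf4 and -0.11 for Tnfrsf18, and all 6 ratios were below 0. Of 12 endothelial markers 0 passed, between -0.36 for Kdr and 0.35 for Pecam1.

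Ada is known from T cells, of whose 15 markers 1 rose, Cd3e (1.10 ± 0.15), with Lef1 lowest at -0.81 and a median of 0.16. The T cell ratios lay on both sides of 0, with 9 above and 6 below it, and those of Lef1 and Ccr7 (-0.74) were below 0 on every array without passing. These 2 genes, like Ncr1 and Klrd1 next, were picked out after their values were seen. Of 10 NK cell markers 2 rose, Klrk1 (1.16) and Nkg7 (0.84), with a median of 0.16. Of the NK ratios 4 were below 0, and Ncr1 (-0.61) and Klrd1 (-0.56) were so on every array without passing. With 1 array left out, Aif1, Cd3e, Klrk1 and Nkg7 were called in 0 of 5 fits and Cd14 in 1. Of 7 dendritic cell markers 0 passed. Red cells, which carry Ada and adenosine transporters, gave 5 falling of 9 markers: Hbb-b1 (-3.04), Hbb (-2.26), Ahsp (-1.98), Alas2 (-1.54) and Klf1 (-1.10). The probes of 3 of these genes were far apart, at -3.73 and -0.80 for Hbb, -2.88 and -0.19 for Alas2 and -2.19 and -0.013 for Klf1. With 1 array left out, Hbb-b1 was called in 5 of 5 fits, Hbb and Alas2 in 2, Ahsp in 1 and Klf1 in 0. Of 13 granulocyte and mast cell markers 0 passed, with a median of -0.26, and of 10 kidney tubule and podocyte markers 0 passed, with a median of -0.014. The part of these cell types in the ratios of Entpd1 and Ada was not tested.

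**Figure D4:**
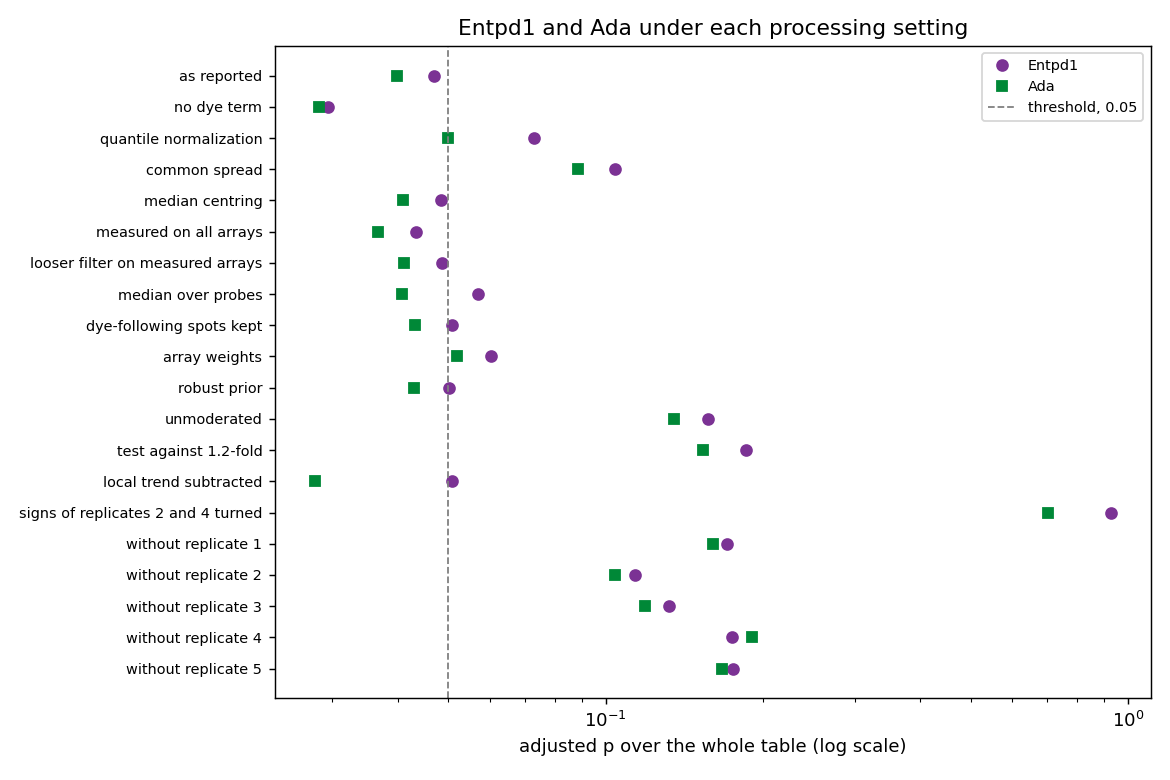
Adjusted p over the whole table (horizontal axis, log scale) of Entpd1 and Ada under each processing setting, with the threshold of 0.05 as a dashed line. Both genes lie right of the threshold in each of the 5 settings that leave out an array, and Ada lies left of it in more of the other settings than Entpd1.

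Over the 13 alternatives that kept all arrays and the signs of the columns, the ratio of Entpd1 ran from 0.75 to 0.92 and that of Ada from 0.80 to 0.91, and over the fits that left out an array they ran from 0.73 to 0.85 and from 0.79 to 0.84. Of the 13, 6 for Entpd1 and 7 for Ada leave the ratio as it was by their construction, since they alter only the test, the rows tested or spots of other genes, or take the median of 2 probes. Entpd1 passed in 4 of these 13 alternatives and Ada in 9. With an array left out the adjusted p was 0.114 to 0.175 for Entpd1 and 0.104 to 0.191 for Ada, where 56 to 172 of all rows tested passed in place of 455.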

How the data were processed

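The deposited values are log ratios, 1 column per array, already made by the authors from 2-colour arrays of 44290 spots and used here as log2 ratios. The sources used here name no scanner, background correction, normalization or log base. Rows carry numbers only, so probes were assigned through the best of 17 spot orders, by the correlation of probes of 1 accession number. Probe genes came from the platform annotation (23535 probes with 1 gene, 48 with several, 20707 with none listed), updated through RefSeq (GRCr8) by Entrez number, with 23488 probes matched and the older symbol kept for the others, Adora3 among them. Arrays held 41033 to 43286 values each.

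Probes measured on at least 4 arrays and in both dye orientations were kept, and 407 spots whose mean ratio, signed by the dye, exceeded 3 were left out. Probes of a symbol were averaged and fitted on all 5 arrays with lmFit and eBayes (limma 3.58.1, R 4.3.3), with an intercept and a dye term, after a test on simulated data. The number of arrays limits the precision. Each limma SE, confidence interval and p-value mixes a row's own spread between these 5 arrays with a spread that eBayes takes from all rows. Without this moderation 0 rows were called.

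Named were all 10 genes, the called, highest and lowest gene of each other pathway list, and the called genes of each marker list, with highest and lowest for platelets, monocytes, regulatory T cells and endothelium. P2ry12's neighbours, the 5 gene pairs, the promoter motifs and the further markers Ppbp, Cd79b and Fcrla were chosen after seeing values. The genes and lists were chosen with earlier results of these data known. Alternatives were the dye term, normalization, filters, probe averaging, variance prior, array weights, a 1.2-fold minimum, a local trend, the signs of replicates 2 and 4, and leaving out each array. In a fit with a dye term, turning those signs exchanges the fitted ratio with the dye effect.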

Additional observations from a re-analysis of the deposited data

Results flagged for a closer look

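P2ry12 stood at -1.34 on replicate 1, far below the other 4 arrays, which lay between -0.52 and -0.21. Dpp4 stood at -0.93 on replicate 4, with the other 4 arrays between -0.62 and -0.49. These were the 2 of 47 genes looked at with 1 array outside the limit of Dixon's test at 95%, which chance passes in about 1 in 20 groups.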

How the results depend on the processing

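The calls rest on a test at the edge of its reach with 5 arrays, on a recovered row order and on signs that are likely and not stated. Of all rows, 455 were called. The count was 0 without a moderated variance (4501 at an unadjusted p under 0.05), 197 against a minimum of 1.2-fold, 0 with the signs of replicates 2 and 4 turned (3823 unadjusted in limma) and 56 to 172 with 1 array left out. It lay between 313 and 639 under the other settings that average probes and was 593 of 41630 probes fitted singly. With a common spread of the arrays the share of called rows that were higher went from 56.3% to 31.3%. The probe correlation of 0.476 was -0.0021 with rows as numbered.

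Of the members, 2 were called higher. This was 1 under quantile normalization, with the median over probes, with dye-following spots kept, with a robust prior and with a local trend subtracted. It was 0 with a common spread, array weights, no moderation, the 1.2-fold minimum, turned signs and any 1 array left out (0 to 0). In limma no member was called lower under any of these settings. The 5 calls among other pathway genes became 1 with a common spread, 0 without moderation, 3 against 1.2-fold, 0 with turned signs and 0 to 0 with 1 array left out. The lowest adjusted p values with 1 array left out were 0.0576 for P2ry13, 0.0912 for P2ry14, 0.0582 for Pnp, 0.0558 for Il18 and 0.0513 for Pde4b. The causes were not tested.

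For Entpd1 the limma adjusted p was 0.0730 under quantile normalization, 0.104 with a common spread, 0.0570 with the median over probes, 0.0508 with dye-following spots kept and with a local trend, 0.0602 with array weights, 0.0501 with a robust prior, 0.157 unmoderated, 0.186 against 1.2-fold and 0.927 with turned signs (ratio 0.040). For Ada it was 0.0886 with a common spread, 0.0520 with array weights, 0.135 unmoderated, 0.153 against 1.2-fold and 0.703 with turned signs (ratio 0.13). With turned signs the ratios of both genes are the dye effects of the reported fit.

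Turned signs exchange the ratio with the dye effect in this fit, so the values with turned signs are dye effects. They were opposite in sign to the reported ratio for Nt5e (0.0059), P2rx7 (0.082), Adora3 (0.12), Acp3 (-0.35), P2rx5 (-0.32), P2rx3 (0.037), Dpp4 (0.066), Pde4b (-0.063), Pf4 (0.19), Itgb3 (0.065), Hbb-b1 (0.012), Alas2 (0.054), Ccr2 (0.16), Tnfrsf18 (0.17), Pecam1 (-0.0098) and Kdr (0.079). With 1 array left out Nt5e ran from -0.082 to 0.012, Adora3 from -0.13 to 0.014, P2ry1 from -0.49 to 0.37, Nek7 from -0.35 to 0.0063 and Adcy9 from -0.59 to 0.013. One probe of Adora1 stood at 0.054, and the untested mean of Adora3 over the 3 arrays with the allograft in Cy5 was 0.055. Of all tested alternatives for single genes, turned signs included, 738 kept direction and side of the threshold, 159 lost the call, 8 gained one and 23 reversed. Each array already sets 1 allograft sample against 1 isograft sample, so the fit to the log ratios compares within these pairs. No further pairing was made.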
